A study of Mus musculus with 4 samples.

Results

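Genes that copy DNA and bring cells into S phase were compared between the original population of NF639 cells and a pool that resists the green tea polyphenol epigallocatechin gallate (EGCG). The list named 48 genes of replication origins, the replicative helicase, the sliding clamp, the polymerases, nucleotide supply and S-phase entry. For each gene the probe set of highest mean signal was taken among those annotated with that symbol alone, and 46 of the 48 genes had one, out of 12393 genes with such a probe set on the array. Gins2 and Rnaseh2a had no such probe set and were not analysed here. All 46 passed the filter on dim probe sets, so every measured member was tested among 7510 genes.

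NF639 is a mouse mammary tumour line, derived from a tumour of a transgenic mouse in which the mouse mammary tumour virus promoter drives the ErbB2 (Her-2/neu) oncogene. The 2 groups differ, per the labels, in their resistance to EGCG: 2 arrays carry RNA of the original population and 2 carry RNA of the resistant pool, which is a pool and not a clone. The labels give no dose or time of EGCG for either group and do not say whether EGCG was present at harvest. The RNA came from independent experiments, per the series' design text. Each array is a single measurement of MAS5 signal, a background-adjusted intensity on a linear scale; with no counts behind it, the precision rests on how many arrays there are. No assignment of 2 against 2 arrays can give a two-sided permutation p below 0.333, so tests below rest on limma, which shares information on the spread across probe sets.

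Before S phase, the origin recognition complex (Orc genes) with Cdc6 and Cdt1 loads the Mcm helicase onto origins, and geminin (Gmnn) blocks Cdt1 after origins have fired. Cyclin E with Cdk2 then promotes firing, Cdc45 and the GINS complex turn the loaded Mcm proteins into an active helicase, and the polymerases extend DNA on the clamp Pcna, which the Rfc complex loads. Many of these genes are textbook targets of E2F transcription factors, which are released from the retinoblastoma protein as cells commit to S phase, and their mRNA is highest around the entry into S phase.

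Promoter sequences of 5 members are shown because they differ in the change between the groups and in matches to the E2F motif. Their log2 fold changes, resistant minus original, run from -0.05 (Mcm6) to 0.91 (Ccne1). Members with lower values, down to -0.38 (E2f3), are not shown. They come from RefSeq on GRCm38.p6, run 5′ to 3′ on the strand of the gene from 250 bases before to 30 after the annotated start, and have in capitals every match on either strand to the E2F motifs TTTGGCGC, TTTCCCGC, TTTGCCGC and TTTCGCGC. Ccne1 (chr7:38107461-38107740, minus strand) and Rfc3 (chr5:151651179-151651458, minus strand) had the largest differences between the groups. Mcm7 (chr5:138171854-138172133, minus strand) and Cdc6 (chr11:98907901-98908180, plus strand) were higher on both resistant arrays by a smaller amount. Mcm6 (chr1:128359676-128359955, minus strand) had nearly equal signals in the groups. Mcm7 has 2 windows in the table, and the one that holds E2F matches is shown.
Ccne1: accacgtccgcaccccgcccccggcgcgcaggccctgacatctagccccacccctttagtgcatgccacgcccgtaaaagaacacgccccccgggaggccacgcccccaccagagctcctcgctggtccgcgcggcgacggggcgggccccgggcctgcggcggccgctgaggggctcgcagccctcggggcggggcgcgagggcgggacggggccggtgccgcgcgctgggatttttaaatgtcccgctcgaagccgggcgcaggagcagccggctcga
Rfc3: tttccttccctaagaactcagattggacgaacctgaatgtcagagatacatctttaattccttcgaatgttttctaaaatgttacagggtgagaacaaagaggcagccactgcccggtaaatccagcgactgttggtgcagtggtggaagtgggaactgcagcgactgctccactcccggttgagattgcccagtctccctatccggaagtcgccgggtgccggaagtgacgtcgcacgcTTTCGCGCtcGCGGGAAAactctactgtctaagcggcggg
Mcm7: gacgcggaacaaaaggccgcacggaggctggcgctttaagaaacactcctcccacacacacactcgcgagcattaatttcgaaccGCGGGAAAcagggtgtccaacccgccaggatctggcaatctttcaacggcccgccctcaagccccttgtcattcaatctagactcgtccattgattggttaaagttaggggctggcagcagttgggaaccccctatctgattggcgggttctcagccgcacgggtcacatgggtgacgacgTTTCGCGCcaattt
Cdc6: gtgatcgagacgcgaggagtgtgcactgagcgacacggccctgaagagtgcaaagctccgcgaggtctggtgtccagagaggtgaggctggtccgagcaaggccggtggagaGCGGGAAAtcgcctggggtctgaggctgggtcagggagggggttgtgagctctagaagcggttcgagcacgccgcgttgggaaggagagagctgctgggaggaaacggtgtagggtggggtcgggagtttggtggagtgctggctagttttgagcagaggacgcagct
Mcm6: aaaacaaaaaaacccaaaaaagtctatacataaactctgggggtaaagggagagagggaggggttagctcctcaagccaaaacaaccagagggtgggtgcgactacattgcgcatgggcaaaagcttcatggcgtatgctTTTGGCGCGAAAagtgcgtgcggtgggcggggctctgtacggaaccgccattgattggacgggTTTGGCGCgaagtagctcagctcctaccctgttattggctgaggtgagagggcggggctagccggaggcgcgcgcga

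In these windows Ccne1 held no match to the E2F letters searched, and Rfc3 held 2, which begin 10 bases before the annotated start and at the start itself. Mcm7 held 2 matches and Cdc6 held 1. Mcm6 held 3, of which 2 on opposite strands overlap. A match is a description of the letters and not a shown binding site, and the lack of one says only that these letters are not in this window.

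Shares of genes were counted over the whole window of 300 bases, which runs to 50 bases after the start, and the only matches of Cdt1, Pold1 and Lig1 reach past 30 bases after the start. A gene with several windows was counted once. Of the 39 members with a promoter window, 14 held an E2F match (35.9%), against 704 of 27025 genes of the whole promoter table (2.60%). The share was 26.7% of 60 other S-phase genes and 6.06% of 33 genes of G2 and mitosis. For the cell-cycle homology element searched as TTTGAA, which is known from promoters of mitotic genes, the order was the other way, with 12.8% of the members, 69.7% of the G2 and mitosis genes and 20.2% of all genes. The NF-Y box CCAAT was found in 61.5% of the members and 41.1% of all genes, and the Sp1 box GGGCGG in 76.9% and 38.2%. Among members, the E2F match was about as frequent in those whose resistant arrays both lay above both original arrays (7 of 18) as in the other measured ones (7 of 20).

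**Figure D1:**
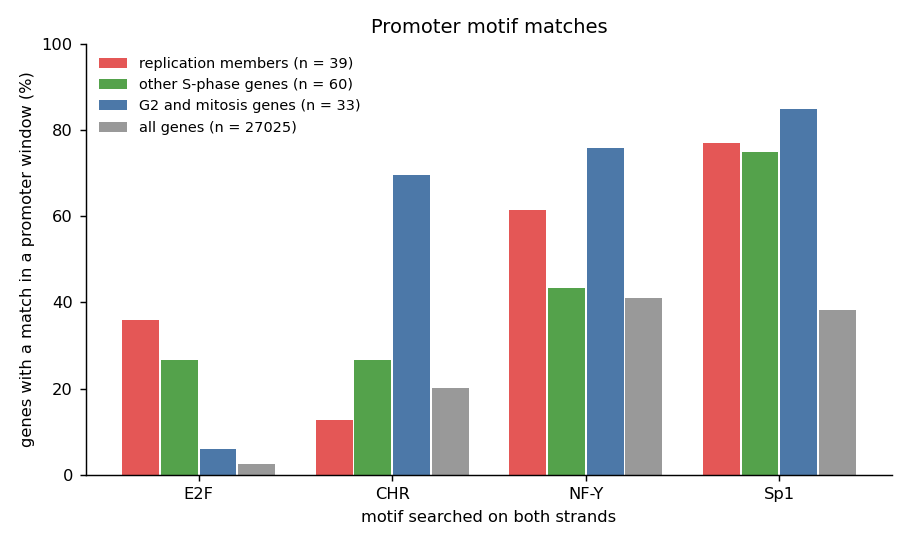
Share of genes with at least 1 match in a promoter window of 300 bases (vertical axis, %) for each motif, searched on both strands, in the 39 replication members, 60 other S-phase genes, 33 G2 and mitosis genes and all 27025 genes of the promoter table. E2F matches were at 35.9% in the members and 2.60% in all genes, and CHR (TTTGAA) matches at 12.8% and 20.2%.

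Most replication genes were fitted slightly higher in resistant cells, though none passed the test on its own. The median log2 fold change, resistant minus original on the log2(signal + 3) scale, stood at 0.14 over the 46 members, with the middle of the list between 0.06 and 0.25 (25th and 75th percentiles). The median over all 7510 genes was 0.02, with 25th and 75th percentiles of -0.16 and 0.19. Of the members, 38 were fitted above 0 (52.8% of all genes were), and 8 below. Both resistant arrays lay above both original arrays in 23 of the 46 members (50%), against 19.8% of all genes tested, and both lay below in 2 members (4.35%), against 17.4%. The shift was small beside the precision for a single gene: the 95% intervals of the members reached a median of 0.40 to either side of the fitted value.

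No single member passed the test over all probe sets (limma, Benjamini-Hochberg adjusted p under 0.05), where 0.226% of all genes did. At an unadjusted p under 0.05 there were 2 members, Ccne1 and Rfc3, both higher, and none lower, against 3.95% of all genes higher and 3.94% lower. The intervals of 42 members lay wholly within a 2-fold change in either direction. The other members were Ccne1, Rfc3 and Tyms, whose upper ends lay above 2-fold, and E2f3, whose lower end reached a log2 value of -1.23.

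The arrays of each group were not alike in their technical controls. All 7 probe sets for the bacterial transcripts BioB, BioC and BioDn, which are spiked into the hybridisation mix, were brighter on the array numbered 2, with a ratio of 1.39 to 2.11 between the original arrays and of 1.48 to 2.29 between the resistant ones. The spiked CreX transcript did not show this: its probe sets had ratios of 0.995 and 0.991 between the original arrays and of 1.11 and 1.09 between the resistant ones. Differences are therefore also given within each replicate number, though no label names a batch. With the replicate number as a term of the limma fit, which leaves 1 residual degree of freedom, Ccne1 and Rfc3 passed, both higher. Of the members 4.35% passed, near the share over all genes, of which 2.73% passed higher and 3.09% lower. Over the array 710 probe sets passed in that fit, against 23 without the term. Its standard errors hardly followed a gene's own replicates: they were 0.179 for both Orc5 (0.34 and 0.29 within the numbers) and Gins1 (0.41 and -0.02). A pass there therefore says little about the agreement of a gene's own arrays. The 5′ probe set for 18S ribosomal RNA stood at 4005.3 on the array of original 2 and between 346.7 and 624.3 on the other arrays. Original 2 was the lowest of the 4 arrays in 22 of the 46 members (47.8%), and in 29.3% of all genes. Without that array 31 members were fitted above 0, with a median of 0.12. The part of these technical differences in the results was not tested.

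Within replicate number 1 the members' median difference was 0.12, and within number 2 it was 0.15. In 27 members the resistant array was higher in both numbers (31.9% of all genes were), in 4 it was lower in both (27.7%), and in 15 the sign differed between the numbers (40.4% of all genes). The members with differing signs included 4 of the 8 polymerase and primase genes and 4 of the 10 helicase genes.

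**Figure D2:**
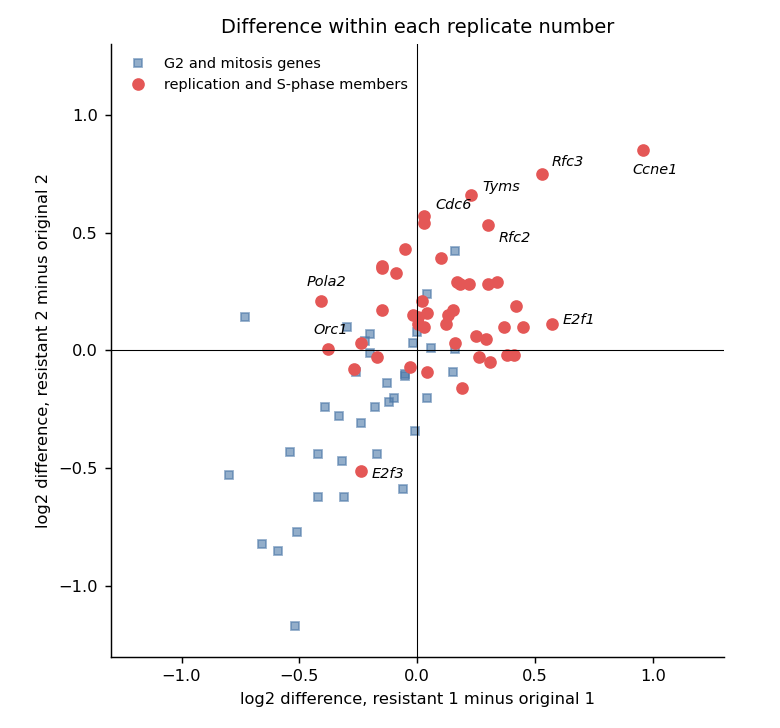
Log2 difference of resistant 1 minus original 1 (horizontal axis) against resistant 2 minus original 2 (vertical axis), 1 point per gene, for the 46 replication members (circles) and 37 G2 and mitosis genes (squares). Of the circles, 27 lie above 0 on both axes, while 24 of the squares lie below 0 on both.

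Of the markers of a mammary epithelial tumour cell, Erbb2 had original signals of 319.7 and 299.4, against 280.7 and 326.2 in resistant cells. Whether its probe set reads the transgene was not tested. The other 5 (Krt8, Krt18, Krt19, Epcam and Cdh1) lay under the filter on dim probe sets, with signals between 1.4 and 62.9, so the epithelial label was not borne out by these probe sets. The proliferation markers Mki67, a nuclear protein of cycling cells, and Top2a, the topoisomerase that untangles sister chromatids, were lower on both resistant arrays. Mki67 had signals of 3569.9 and 3305.8 against 3235.9 and 2654.7, and Top2a 4884.9 and 4628.2 against 4516.6 and 3616.1, and neither passed (limma adjusted p = 0.863 and 0.858). Markers of leukocytes and endothelium were dim: Ptprc, Cd3e and all 4 endothelial genes lay under the filter, and Cd68 and Lyz2 differed by 0.08 and -0.17. Of the fibroblast markers 4 of 5 were tested, 2 above and 2 below 0, from Dcn at -2.15 to Col1a1 at 0.99, and their part in the replication values was not tested. In bulk RNA a change in the share of cells in S phase and a change of mRNA per cell cannot be told apart.

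Cyclin E, which with Cdk2 drives entry into S phase, is encoded by Ccne1, which had the largest fitted difference of the 46 members, and by Ccne2, which had nearly none. Ccne1 had original signals of 185 and 251.1, against 362.9 and 456 in resistant cells, so both resistant arrays lay above both original ones. Its means were 218.1 ± 46.7 and 409.4 ± 65.8 (SD, n = 2 per group), a fold change of 1.87. The log2 fold change was 0.91 ± 0.258 (SE; 95% interval 0.33 to 1.48), and 0.96 and 0.85 within replicate numbers 1 and 2. Over all probe sets it did not pass (limma adjusted p = 0.35); with the replicate number as a term it did (limma adjusted p = 0.0019). Leaving out 1 array at a time gave 0.69 to 1.12, with no call. Ccne2 had signals of 856.9 and 840.6 against 881.8 and 791, which overlap, and a log2 fold change of -0.02 (95% interval -0.42 to 0.37). The difference between both cyclin genes was not tested. For Cdk2, their kinase partner, signals were 981 and 952.5 against 965.7 and 1055.8, a log2 fold change of 0.06.

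E2F1 is an activator of S-phase genes and itself a target of E2F. E2f1 had original signals of 386.8 and 439.7, against 575.3 and 474.3 in resistant cells, without overlap, and a log2 fold change of 0.34 ± 0.214 (SE; 0.57 and 0.11 within the numbers). Without resistant 1 it was 0.20. Its other probe set differed by 0.58 in the same direction, with overlap between the groups (212 and 138.7 against 334.8 and 199.1). E2f3, another activator of the family, was dim, at 71.4 and 75.5 against 59.9 and 52.1, with a log2 fold change of -0.38 (95% interval -1.23 to 0.47). It was 1 of the 2 members lower on both resistant arrays, and its interval was the widest of all members.

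Rfc3, a subunit of the loader that opens the Pcna ring and sets it on DNA, had the second largest difference. Its original signals were 1717.3 and 1168, against 2478.9 and 1964.5 in resistant cells, which do not overlap although each group spread widely. The means were 1443 ± 388 and 2222 ± 364 (SD, n = 2 per group), a log2 fold change of 0.64 ± 0.215 (SE; 95% interval 0.16 to 1.11). It did not pass over all probe sets (limma adjusted p = 0.491), and passed with the replicate number as a term (limma adjusted p = 0.00206), with differences of 0.53 and 0.75 within the numbers. Its other probe set gave 0.56 and also passed in that fit (limma adjusted p = 0.0157). The size depended on single arrays, from 0.36 without original 2 to 0.91 without original 1.

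The other loader subunits spread to both sides. Rfc2 had signals of 882.1 and 630.1 against 1088.9 and 911, without overlap, and a log2 fold change of 0.42 ± 0.213 (SE; limma adjusted p = 0.741), which was 0.17 without original 2 and 0.66 without original 1. Rfc5 was lower on both resistant arrays, at 1620 and 1527.5 against 1343.8 and 1441.3, with a log2 fold change of -0.18. Rfc4 (0.11) and Rfc1 (0.02), the large subunit, overlapped between the groups. Pcna, the sliding clamp itself, had signals of 11044.9 and 11007.8 against 11209.7 and 12719.6 and a log2 fold change of 0.11 (95% interval -0.27 to 0.49). Its difference was 0.02 within number 1 and 0.21 within number 2, so it came mostly from the array of resistant 2.

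**Figure D3:**
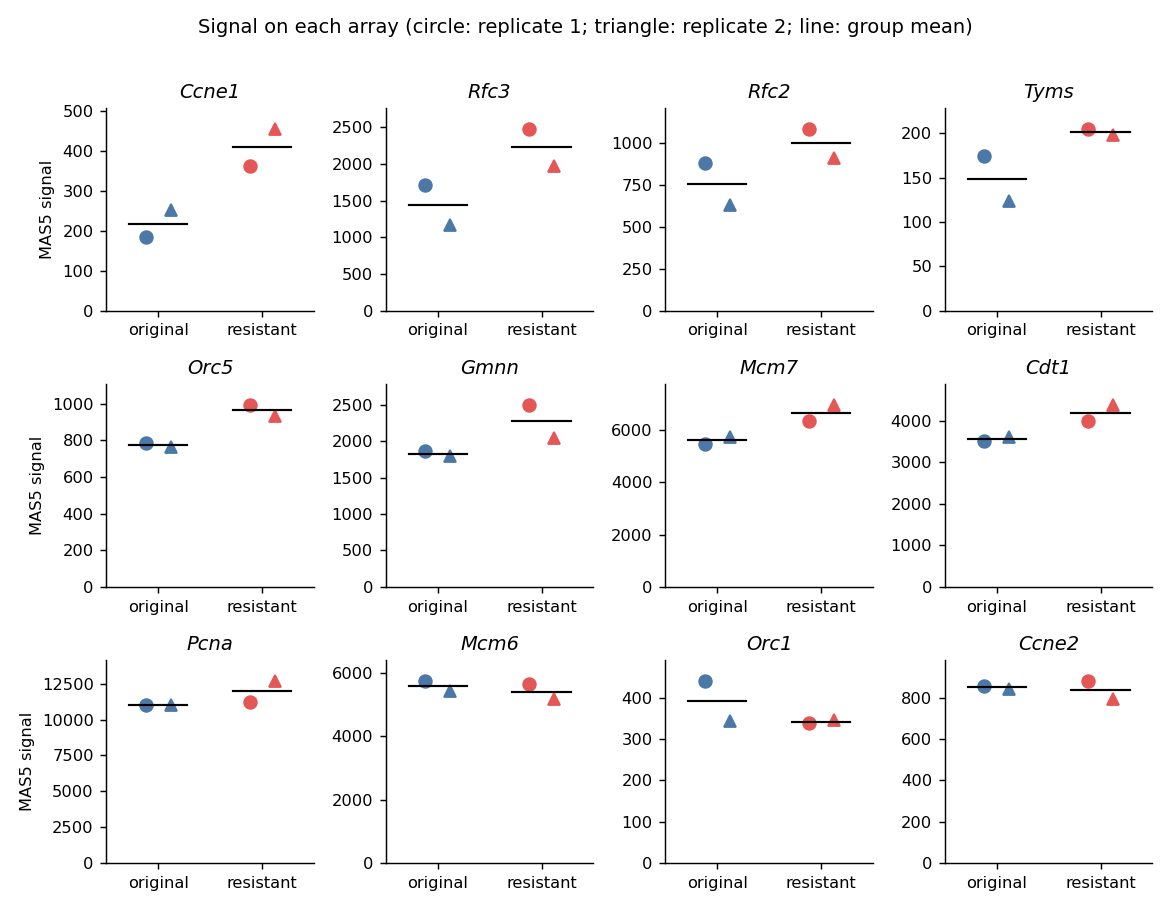
MAS5 signal (vertical axis, linear, starting at 0) on each of the 4 arrays for 12 members, with the original population and the resistant pool on the horizontal axis; circles are replicate 1, triangles replicate 2 and lines the group mean. Ccne1 and Rfc3 show separate groups with means of 218.1 and 409.4 and of 1443 and 2222, while Mcm6 and Ccne2 overlap.

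Of the 7 genes that license origins, 6 were fitted above 0 (52.8% of all genes were), with a median log2 fold change of 0.28. Both resistant arrays lay above both original arrays in 5 of the 7 (71.4%, against 19.8% of all genes), and none passed the test. Orc5, of the origin recognition complex, had close replicates, at 785.4 and 762.6 against 995.4 and 933.2. Its log2 fold change was 0.31 ± 0.177 (SE; limma adjusted p = 0.774), with 0.34 and 0.29 within the numbers. For Orc2, of the same complex, signals were 988.1 and 841.6 against 1006.2 and 1229.2, with 0.03 within number 1 and 0.54 within number 2, and its other probe sets gave 0.06 and 0.03. Its log2 fold change of 0.28 ran from 0.14 without resistant 2 to 0.43 without resistant 1. Orc6 (0.0074) and Orc1 (-0.19) overlapped between the groups, and differences among the subunits were not tested.

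Both the loading factor Cdt1 and its inhibitor geminin were higher on the resistant arrays. Cdt1 had signals of 3505.6 and 3604.9 against 3984 and 4385.6, a log2 fold change of 0.23 ± 0.161 (SE). Gmnn had signals of 1861 and 1789.7 against 2500.5 and 2048.1, and 0.31 ± 0.172 (SE; 95% interval -0.07 to 0.69), which was 0.17 without resistant 1. Cdc6, the ATPase that works with Cdt1, had 1234 and 830.1 against 1261.6 and 1238.4. Its log2 fold change of 0.30 came almost wholly from number 2 (0.57, against 0.03 within number 1), where original 2 was the low array.

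Among the 10 helicase genes, 4 were higher in resistant cells without overlap (40%, against 19.8% of all genes). Of the Mcm genes, which encode the ring of the helicase, Mcm7, Mcm4 and Mcm5 did not overlap between the groups. Mcm7 had signals of 5456.1 and 5757.7 against 6346.8 and 6980.9, a log2 fold change of 0.25 ± 0.163 (SE; 0.22 and 0.28 within the numbers), and its 4 probe sets were all fitted higher. Mcm4 (0.23) and Mcm5 (0.14) had the same sign within both numbers. The second probe set of Mcm4 overlapped, at 1522.7 and 1496.4 against 1702.6 and 1452.2, with a difference of 0.06. Mcm2 (0.12) and Mcm3 (0.06) overlapped, and original 2 was their lowest array. Mcm6 was 1 of the 8 members below 0, at 5759.7 and 5439.5 against 5653.9 and 5170, a log2 fold change of -0.05 (95% interval -0.41 to 0.31). The Mcm subunits act in equal numbers in the ring, and the fitted differences of their transcripts ran from -0.05 to 0.25, with intervals that overlap throughout.

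For the GINS complex, Gins4 had nearly equal original arrays at 925.2 and 929.8, and 1265.7 and 994.6 in the resistant pool, a log2 fold change of 0.27 ± 0.187 (SE; 0.45 and 0.10 within the numbers), with 0.10 without resistant 1 and 0.45 without resistant 2. Gins1 (0.20) was higher within number 1 only. Cdc45 (0.10) and Mcm10 (0.19), a factor that helps start the fork, were higher within number 2 only, and original 2 was the lowest array for each. None of the 10 helicase genes passed in the fit with the replicate number as a term either.

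The polymerase and primase genes had a median log2 fold change of 0.12. In 3 of the 8 both resistant arrays lay above both original arrays (37.5%, against 19.8% of all genes), and in none did both lie below (17.4% of all genes). Prim1, the catalytic primase subunit that makes the RNA primer, had signals of 1920.3 and 1845.2 against 2134.9 and 2074.9, a log2 fold change of 0.16 ± 0.160 (SE) with 0.15 and 0.17 within the numbers. Its partner Prim2 (0.15) and Pold1 (0.10), the catalytic subunit of polymerase delta, were the others without overlap. The second probe set of Prim2 overlapped, at 585.8 and 587.4 against 715 and 556.9 (0.10). That of Pold1 did too, at 792 and 586.1 against 739.6 and 682.6 (0.06), while that of Prim1 did not (0.34). Pola1 (0.18) and Pole2 (0.13) were higher within number 1 only, and Pole (0.10), the catalytic subunit of polymerase epsilon, within number 2 only. Pola2 and Pold2 were both at -0.10 and overlapped. The polymerase genes ran from -0.10 to 0.18, and the interval of each lay within a 2-fold change.

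All 3 subunits of replication protein A, which coats unwound single-stranded DNA, were fitted above 0 and higher within both numbers. Over all genes, 52.8% were fitted above 0 and 31.9% were higher within both numbers. Rpa2 was at 0.25 and Rpa3 at 0.17, without overlap between the groups (19.8% of all genes were higher without overlap). The second probe set of Rpa2 overlapped, at 1191.2 and 857 against 1036 and 982, with a difference of -0.0036. Rpa1 had signals of 5964.7 and 7425.2 against 6661 and 7573.9, which overlap, and a log2 fold change of 0.09 (95% interval -0.31 to 0.49). Its sign turned without original 1 (-0.07) and without resistant 2 (-0.00068).

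None of the 5 genes of nucleotide supply passed the test, and 4 were fitted above 0. Rrm2, the regulated subunit of ribonucleotide reductase, had signals of 4858.8 and 5165.1 against 4871.9 and 5704.2, a log2 fold change of 0.07, which turned to -0.04 without resistant 2. Rrm1, the large subunit, was also at 0.07, and Tk1, thymidine kinase, at 0.11. Dut, which removes dUTP, was at -0.10. Tyms, thymidylate synthase, had 173.9 and 123.9 against 205.3 and 198.2, without overlap, and 0.45 ± 0.291 (SE; 95% interval -0.20 to 1.10), the third largest fitted difference of the members. It was 0.21 without original 2 and 0.69 without original 1. A brighter probe set that the annotation gives to Tyms and its pseudogene together had signals of 1308.8 and 1507.9 against 1398.8 and 1731.3, which overlap, with a difference of 0.15. It could not stand for Tyms under the rule, and the size for this gene is therefore uncertain.

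Fen1 and Lig1, which trim and seal Okazaki fragments, were both higher on both resistant arrays (19.8% of all genes were higher without overlap). Lig1 had signals of 1099.2 and 1021 against 1358.6 and 1243.8, a log2 fold change of 0.29 ± 0.171 (SE; limma adjusted p = 0.795) with 0.30 and 0.28 within the numbers. Fen1 had 2808.4 and 3277.9 against 3633.6 and 3518.8, and 0.24 ± 0.165 (SE), which was 0.12 without original 1. The second probe set of Fen1 overlapped, at 2160.1 and 1979.8 against 2151.8 and 2065.3, with a difference of 0.03.

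**Figure D4:**
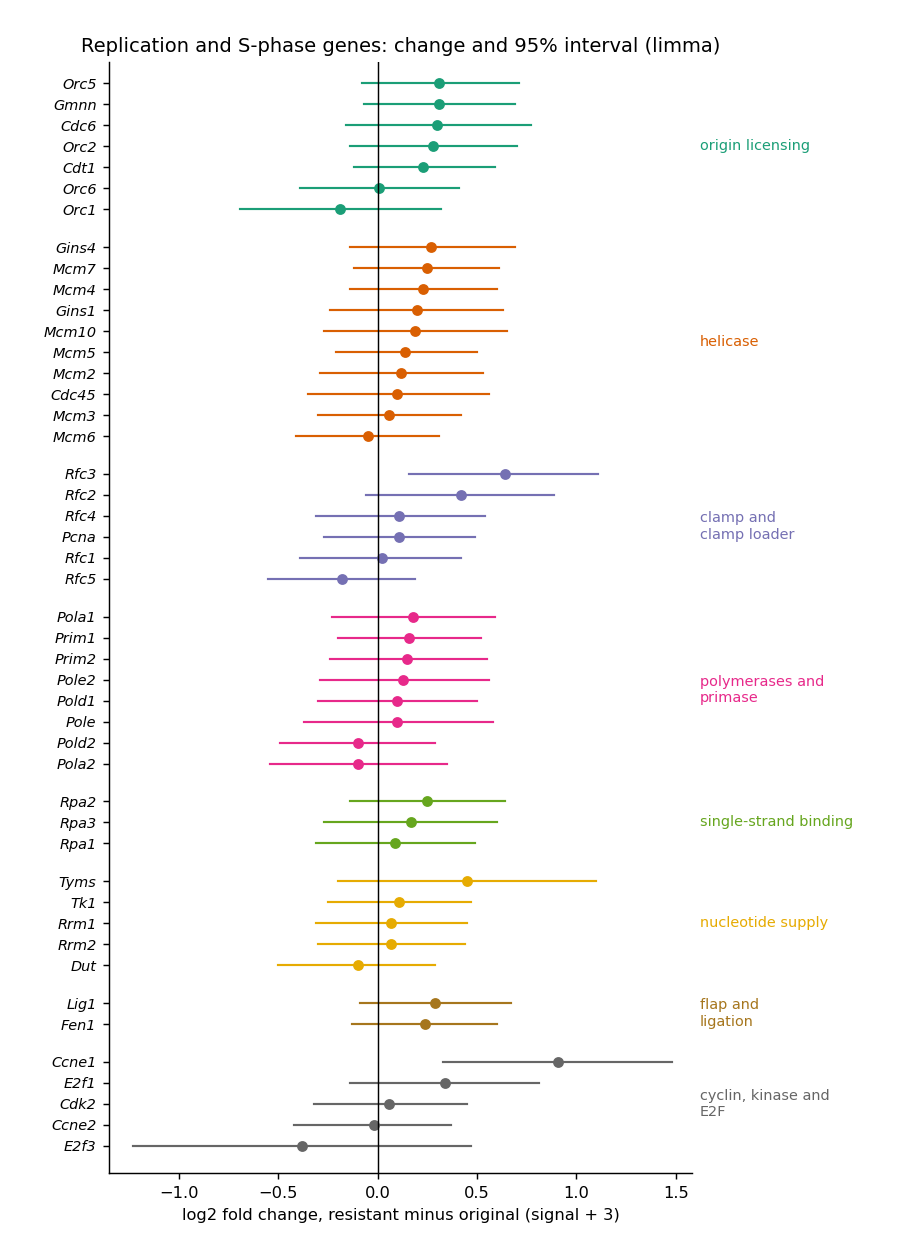
Log2 fold change, resistant minus original (horizontal axis), with its 95% interval from limma for each of the 46 members, grouped by role and ordered within a role. The intervals of Ccne1 and Rfc3 lie above 0, the other 44 cross 0, and 38 of the 46 points lie to the right of 0.

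Probe sets of 1 gene mostly had the same direction. Among 21 members with several tested probe sets, all had the same sign in 17. The exceptions were Mcm3, Rfc1, Rpa2 and Rrm2, whose probe sets ran from -0.45 to 0.21, from -0.19 to 0.02, from -0.0036 to 0.25 and from -0.04 to 0.15. Over all 75 tested probe sets of the members, 59 were fitted above 0.

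Other genes of the pathway lay on both sides of 0. Of 72 further genes of origin firing, fork protection, chromatin assembly, nucleotide supply, G1 to S regulation and the replication checkpoint, 59 were on the array with 1 symbol and 58 were tested. They had a median log2 fold change of 0.004, with 31 above 0 and 27 below, and the median ran from -0.01 without original 2 or without resistant 1 to 0.06 without resistant 2. The list mixes replication factors with regulators of G1 to S and the checkpoint, and no median was taken for its parts. Of the 58, 14 did not overlap and were higher (24.1%, against 19.8% of all genes), and 10 lower (17.2%, against 17.4%). None passed over all probe sets (limma). At an unadjusted p under 0.05 Recql4 and Rrm2b were higher (3.45%, against 3.95% of all genes) and Ccna2, E2f5 and Rnaseh2c lower (5.17%, against 3.94%), which is near the share over all genes. With the replicate number as a term 1 passed higher (1.72%, against 2.73% of all genes) and 2 lower (3.45%, against 3.09%), again near that share: Recql4, a helicase of origin firing, at 0.71 (300.7 and 291.4 against 444.7 and 533.3), E2f5, a repressor of the E2F family, at -0.79 (426.4 and 358.2 against 264.7 and 190.9), and Ccna2. Ccna2 encodes cyclin A, which acts from S phase into G2, and had signals of 3674.7 and 3247.2 against 2375.6 and 2340.4, a log2 fold change of -0.55. Ccne1 was higher and Ccna2 lower on both resistant arrays, while Ccne2, which also encodes cyclin E, overlapped at -0.02. Neither Ccne1 nor Ccna2 passed over all probe sets (limma adjusted p = 0.35 and 0.369), and the contrast between these genes was not tested.

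Genes of G2 and mitosis lay on the other side. Of 38 listed, 37 were tested, with a median of -0.18, 29 below 0 and 8 above. The median was -0.29 without original 2, -0.28 without resistant 1, -0.17 without original 1 and -0.14 without resistant 2, with 25 to 33 genes below 0. In 1 gene the groups did not overlap and the resistant arrays were higher (2.70%, against 19.8% of all genes), and in 14 they were lower (37.8%, against 17.4%). None passed over all probe sets (limma), and 5 passed lower with the replicate number as a term (13.5%, against 3.09% of all genes), and none higher (2.73% of all genes): Cenpe (-0.85) and Cenpf (-0.72) of the kinetochore, Kif23 (-0.67) and Ect2 (-0.74) of cytokinesis, and Ube2c (-0.64), which marks mitotic proteins for destruction. The medians within the numbers were -0.20 and -0.20, where those of the replication members were 0.12 and 0.15. The difference between both lists was not itself tested, and both come from the same 4 arrays.

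**Figure D5:**
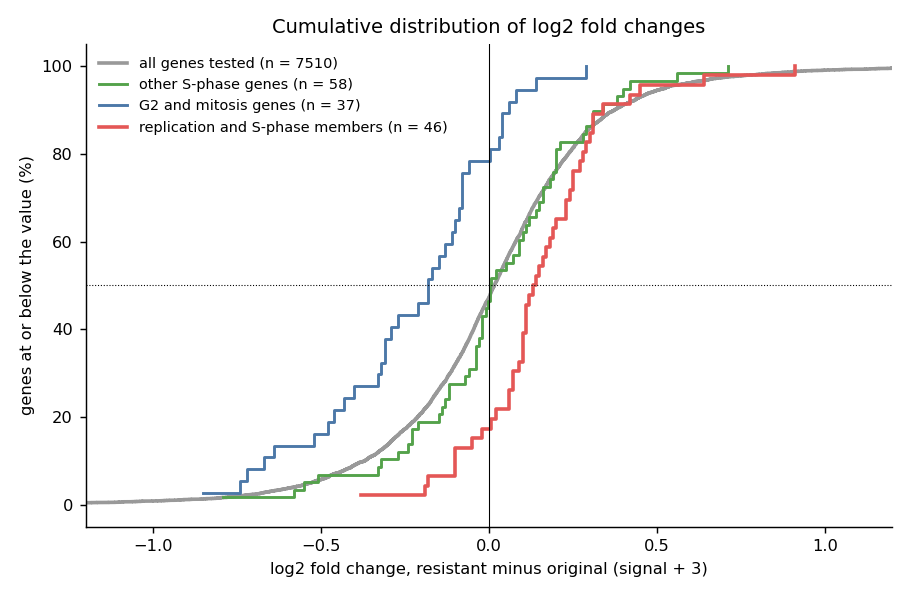
Cumulative share of genes (vertical axis, %) at or below a log2 fold change, resistant minus original (horizontal axis, drawn from -1.2 to 1.2), for the 46 members, 58 other S-phase genes, 37 G2 and mitosis genes and all 7510 genes tested. The medians, where the curves cross the dotted line, are 0.14, 0.004, -0.18 and 0.02.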

How the data were processed

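The deposited values are MAS5 signal intensities, 1 per probe set and array; MAS5 is named in the submitters' processing notes, and no version of it is given in the sources used here. Their trimmed means were nearly equal (496.8 to 497.8 over 22626 probe sets, controls left out), so a global difference in RNA content would have been scaled away. Arrays were scaled to a common mean without the top and bottom 2%, and log2(signal + 3) was taken, where 3 is the rounded 10th percentile; this understates changes of dim genes. Probe sets whose mean log2 value reached the 40th percentile, equal to a signal of 49.1, were kept (the log2 mean was taken in place of the linear mean after the call counts of both had been seen), and these 13576 were tested with limma 3.58.1 in R 4.3.3 (lmFit, eBayes with a trend), two-sided, with Benjamini-Hochberg adjustment over all of them.

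Alternatives were quantile normalisation, no scaling, pseudocounts of 16 and 64, other filters, no variance trend, the replicate number as a block, other probe sets, leaving out each array and, chosen after seeing the data, a filter on the linear mean. The limma fit without a block was tested on simulated data. Symbols came from the platform annotation, and all 48 list symbols are in the GRCm38.p6 gene table. Per-array values were given for members passing in either fit, the 12 of smallest p and the brightest of each role; other named genes were chosen after their values were seen. The members and lists were chosen with earlier results of these data known.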

Additional observations from a re-analysis of the deposited data

How the results depend on the processing

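The members' median log2 fold change kept its sign in every alternative run, from 0.12 to 0.16 when 1 array was left out and from 0.13 to 0.14 otherwise. No member and none of the other S-phase genes passed in any of the 13 alternative fits except that with the replicate number as a block, where 2 members and 3 other S-phase genes passed; for the other choices of probe set, calls over the lists were not counted. In that block fit 4.35% of the members passed higher, and of the other S-phase genes 1.72% passed higher and 3.45% lower. These are near the shares over all genes, which were 2.73% higher and 3.09% lower. Same-numbered arrays deviated together (r = 0.352 over 13576 probe sets, a value across features and not across cultures). With 2 per group, however, the labels do not show that the numbers pair the cultures. The number of probe sets called over the array, 23, moved with the settings: 31 with the filter on the linear mean, 8 with quantile normalisation, 5 without a filter, 10 with a filter at the 60th percentile, 0 without a variance trend, 710 with the replicate block and 68 to 111 with 1 array left out. In the fits with other filters, without a variance trend or with the block, a gene's fitted value could not change. These fits therefore do not test the direction of a gene, nor that of the members' median over the same genes. Of 275 values of 21 named genes, many chosen for a small p or a call in these data, 271 kept their direction under the alternatives. The exceptions were Rpa1 without original 1 (-0.07) and without resistant 2 (-0.00068), Cdk2 without resistant 2 (-0.0034) and Rrm2 without resistant 2 (-0.04); leaving out arrays in turn gave -0.07 to 0.25 for Rpa1, -0.0034 to 0.13 for Cdk2 and -0.04 to 0.19 for Rrm2. With 2 arrays per group, differences of the members' typical size could not be called for single genes.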
